A study of Homo sapiens with 8 samples.

Results

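TXNIP, the α-arrestins ARRDC1 to ARRDC4 and the glucose-sensing transcription factor pair MLXIP (MondoA) and MLX were examined in keratinocytes whose mitochondria had been poisoned. These 7 genes were taken by symbol from the 61806 genes of the deposited table, and all 7 had enough reads to be among the 14893 genes tested. The mRNA came from wild-type N/TERT-1 cells, an immortalized line of human epidermal keratinocytes grown in serum-free medium with epidermal growth factor and pituitary extract. Cells of 4 libraries received ethanol, the solvent, and cells of 4 libraries received O/A, the combination of Oligomycin, an inhibitor of the mitochondrial ATP synthase, and Antimycin A, an inhibitor of respiratory complex III. Treatment lasted 4 hours, a time that the sample labels do not give. All cells are of 1 line, and the sources used here name no other alteration of them. The 4 libraries of each condition are biological replicates from independent experiments.

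MondoA is a basic helix-loop-helix leucine zipper protein that resides largely at the outer mitochondrial membrane and in the cytosol, and moves to the nucleus with its partner MLX when glucose 6-phosphate builds up. The complex binds the carbohydrate response element, a pair of E-box-like motifs that lie 5 bases apart, and TXNIP and ARRDC4 are its best known target genes. The products of both are α-arrestins, adaptors that bring ubiquitin ligases of the NEDD4 family to membrane proteins, and both lower glucose uptake by promoting the endocytosis of glucose transporters. TXNIP also binds and inhibits thioredoxin.

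The promoters of TXNIP and ARRDC4 are shown because these target genes rose, as described below. They are RefSeq sequences of GRCh38.p14, the 250 bases before the annotated start site, read 5′ to 3′ on the strand of the gene, with each CACGNG motif in capitals on whichever strand it reads. The window of TXNIP is chr1:145996580-145996829 on the minus strand and that of ARRDC4 is chr15:97960453-97960702 on the plus strand.
TXNIP: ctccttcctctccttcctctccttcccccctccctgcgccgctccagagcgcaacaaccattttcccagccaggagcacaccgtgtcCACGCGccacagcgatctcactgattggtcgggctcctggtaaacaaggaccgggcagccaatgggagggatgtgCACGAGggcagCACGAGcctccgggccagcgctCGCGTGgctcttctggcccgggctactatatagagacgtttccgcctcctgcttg
ARRDC4: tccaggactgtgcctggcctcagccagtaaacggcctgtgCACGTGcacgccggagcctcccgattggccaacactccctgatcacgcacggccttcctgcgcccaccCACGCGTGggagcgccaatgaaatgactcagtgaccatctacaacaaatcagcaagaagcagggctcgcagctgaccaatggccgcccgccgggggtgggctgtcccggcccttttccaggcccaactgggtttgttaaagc

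The search was for CACGNG on either strand, which also finds the palindrome CACGTG, and for 2 such motifs exactly 5 bases apart. TXNIP held 4 motifs before its start site at position 145996579, and the motifs that begin 88 and 77 bases before that site, both CACGAG, form a pair 5 bases apart. Such a pair was found in 23 of 35116 promoters of the same length (0.0655%), whereas 1 or more CACGNG motifs were found in 26.7% and the palindrome in 6.34%. ARRDC4 held 3 motifs and no pair. The first of these is a palindrome that begins 210 bases before the start site, and the other two overlap each other in the run CACGCGTG that begins 142 bases before it. MLX held 1 palindrome, the first promoter of ARRDC2 held 3 motifs and the second promoter of ARRDC3 held 1, while the windows of ARRDC1 and MLXIP, and the remaining annotated promoters of TXNIP, ARRDC2 and ARRDC3, held none. Only exact CACGNG motifs exactly 5 bases apart counted as a pair, so a pair that departs from that pattern would be missed. These matches describe letters in the window only, and binding of MondoA or MLX was not measured. Whether the motifs bear on the changes below was not tested.

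**Figure D1:**
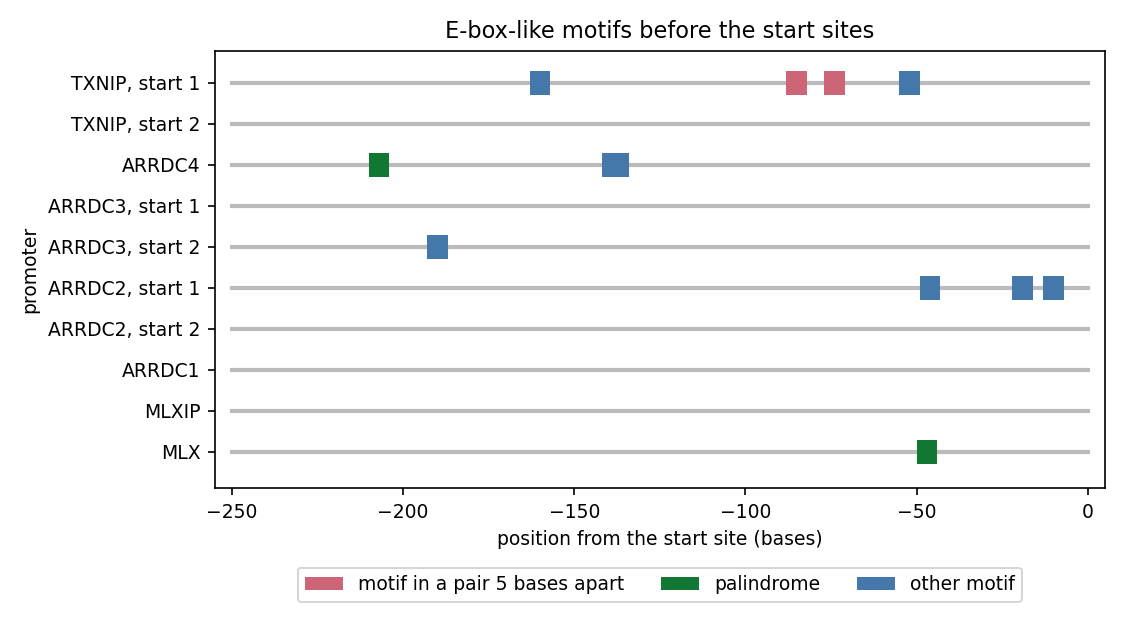
Position of each E-box-like motif in the 250 bases before the start sites of the 7 genes (x axis: bases from the start site; 1 line per annotated promoter, 10 in all). The only pair 5 bases apart is that of TXNIP at its first start site, and ARRDC4 and MLX each hold a palindrome.

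Under O/A the mRNAs of TXNIP and ARRDC4 rose about 5-fold and 4-fold, whereas those of the other α-arrestins and of MondoA and MLX moved by less than 1.4-fold in either direction. To be called, a gene needed an adjusted p-value no greater than 0.05 and an absolute log2(FC) above 0.25. Adjusted p-values here come from edgeR's quasi-likelihood F test with Benjamini-Hochberg adjustment over all genes tested. On this rule 2 of the 7 genes were upregulated, TXNIP and ARRDC4, against 15.8% of all genes tested, and 2 were downregulated, ARRDC2 and MLXIP, against 18.9%. The share called in either direction over all genes was 34.7%, so the count of 4 among 7 is not read as a result about these genes, and the sizes of the changes are given instead.

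TXNIP, a gene on chromosome 1 of GRCh38 (145992435 to 145996579, minus strand), is the most abundant of the 7. Its deposited FPKM values (fragments per kilobase of exon, scaled to library size) were 52.1, 48.3, 52.1 and 49.8 with ethanol and 249.2, 240.4, 232.7 and 229.2 with O/A. Every O/A library therefore lay more than 4 times above every ethanol library. The log2(FC) was 2.28, with a standard error of 0.029 and an adjusted p of 9.89e-47 in edgeR, a 4.85-fold rise with a 95% interval of 4.66 to 5.05. Its level per length moved from rank 690 to rank 108 among the genes tested. Only 0.369% of the genes tested had a higher log2(FC), and among 11646 genes with an FPKM of at least 1 in a condition 39 did. The counts behind these values were 3058 to 3772 in ethanol and 14641 to 16297 in O/A.

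ARRDC4, on chromosome 15 (97960703 to 97973833, plus strand), had FPKM values of 12.2, 11.4, 13.2 and 12.1 in ethanol. In O/A they were 46.7, 46.5, 46.5 and 47.2, and with a coefficient of variation of 0.655% these libraries were closer to each other than those of any other gene among the 7. The log2(FC) was 1.98, with a standard error of 0.035 and an adjusted p of 7.01e-43 in edgeR, a 3.95-fold rise with a 95% interval of 3.77 to 4.15. In the genes with an FPKM of at least 1, 59 had a higher log2(FC). ARRDC4 went from rank 3479 to rank 788 in level.

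The rise of TXNIP was larger than that of ARRDC4. The ratio of both FPKM values within a library, which needs no scaling between libraries, was 3.96 to 4.28 in ethanol and 4.86 to 5.34 in O/A, and the ranges do not overlap. The log2 ratio was 0.29 higher in O/A (standard error 0.039; exact permutation test, two-sided, p = 0.0286, the smallest that 4 libraries against 4 allow, and 0.0429 when adjusted over the 3 ratios tested). The ratio of TXNIP to ARRDC3, an α-arrestin that was not called, was 7.53 to 8.42 in ethanol and 31.7 to 36.0 in O/A. Its exact permutation p was also 0.0286. Because ARRDC3 changed little, that p restates the rise of TXNIP and is no further evidence.

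**Figure D2:**
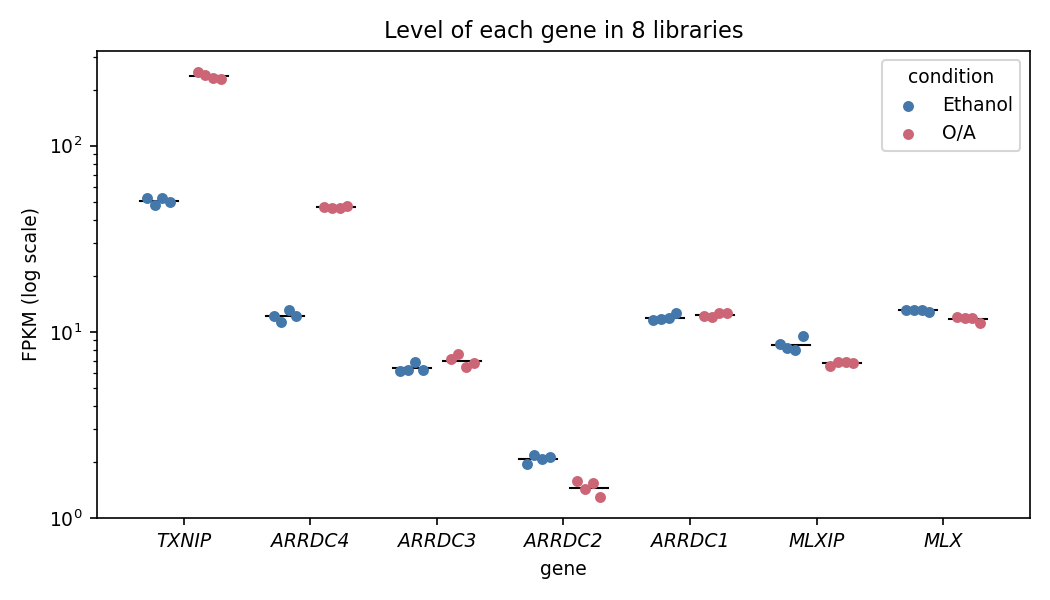
FPKM (log axis) of the 7 genes in each library, with 4 points per condition and a line at the mean. TXNIP and ARRDC4 lie far higher in O/A than in ethanol, at 229.2 to 249.2 against 48.3 to 52.1 and at 46.5 to 47.2 against 11.4 to 13.2. The other genes change little, although the conditions of ARRDC2, MLX and MLXIP do not overlap either.

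Changes in the other α-arrestins were small or downward. ARRDC3, which acts on the β2-adrenergic receptor and on integrin β4 as an adaptor, had FPKM values of 6.19, 6.24, 6.92 and 6.21 in ethanol against 7.16, 7.58, 6.47 and 6.76 in O/A. Its conditions overlap, because O/A replicates 3 and 4 lay below ethanol replicate 3. Its log2(FC) was 0.18 (95% interval 0.07 to 0.28, adjusted p = 0.00436, edgeR), past the p-value threshold and short of the threshold in size.

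ARRDC1, an α-arrestin that drives budding of vesicles from the plasma membrane, had FPKM values of 11.51, 11.71, 11.84 and 12.65 in ethanol against 12.16, 12.03, 12.59 and 12.65 under O/A, so the conditions overlap. The log2(FC) was 0.09 with a 95% interval of 0.0050 to 0.18 (adjusted p = 0.0693), which leaves room for a rise of at most 1.14-fold. An antisense gene, ARRDC1-AS1, shares its end with that of ARRDC1 and rose by 0.81 on the log2 scale (adjusted p = 2.87e-11, edgeR), on 132 to 312 counts per library. Whether reads were counted by strand is not given in the sources used here, so reads in the overlap of both genes cannot be told apart.

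ARRDC2, the least abundant of the 7, fell. It had 1.94, 2.18, 2.06 and 2.12 FPKM in ethanol against 1.57, 1.42, 1.53 and 1.30 under O/A, and every O/A library lay below every ethanol library. The log2(FC) was -0.46, with an adjusted p of 5.76e-05 in edgeR, a standard error of 0.097 and a 95% interval of -0.66 to -0.27. With 107 to 206 counts per library it is the least precisely measured of the 7.

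Summed over these 5 α-arrestins, the FPKM was 79.8 to 86.1 in ethanol and 297.0 to 316.7 in O/A. TXNIP made up 60.1 to 62.1% of that sum with ethanol, against 77.2 to 78.7% with O/A. The share of ARRDC4 was 14.2 to 15.3% in ethanol and 14.7 to 15.9% in O/A, so its ranges overlap although its level had risen about 4-fold. ARRDC1 went from 13.7 to 15.3% down to 3.84 to 4.26%, and ARRDC3 from 7.37 to 8.04% down to 2.16 to 2.46%, while their own levels were not called.

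**Figure D3:**
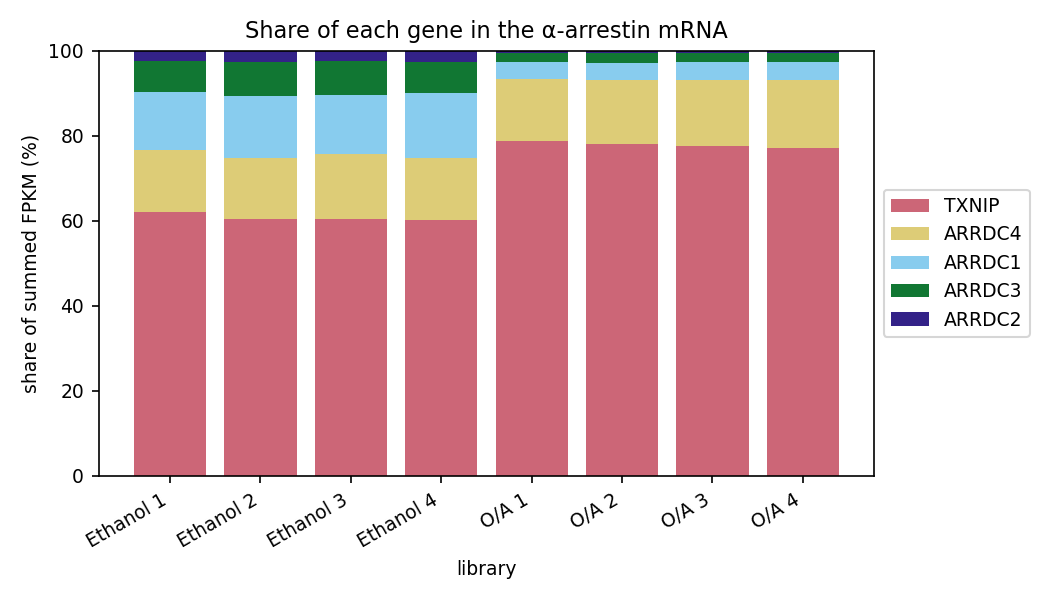
Share of each α-arrestin gene in the summed FPKM of the 5 genes (y axis, percent), 1 bar per library. TXNIP takes 60.1 to 62.1% in ethanol and 77.2 to 78.7% in O/A, and the share of ARRDC4 hardly differs.

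The mRNA of the sensor did not rise with those of TXNIP and ARRDC4, and its protein and place in the cell were not measured. MLXIP, which encodes MondoA, lies on chromosome 12 (122078756 to 122147344, plus strand) and had 8.55, 8.17, 7.94 and 9.46 FPKM in ethanol against 6.53, 6.89, 6.87 and 6.82 under O/A. The conditions do not overlap, and the spread in ethanol comes mostly from replicate 4. The log2(FC) was -0.29, with a 95% interval of -0.38 to -0.20, a standard error of 0.043 and an adjusted p of 4.61e-06 in edgeR. Without ethanol replicate 4 the log2(FC) was -0.23 (adjusted p = 1.16e-07), within the threshold in size, so the call of MLXIP rests on that library, while its direction does not.

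MLX, the partner through which MondoA binds DNA, had 13.03, 13.15, 13.08 and 12.84 FPKM in ethanol against 12, 11.88, 11.81 and 11.11 under O/A. Every O/A library lay below every ethanol library, yet the difference is small, with a log2(FC) of -0.11 (95% interval -0.19 to -0.02, adjusted p = 0.0245), and MLX was not called. The gene PSMC3IP overlaps the end of MLX on the opposite strand, held reads amounting to 49.3% of those of MLX and rose (log2(FC) 0.43, adjusted p = 4.95e-04, edgeR). As for ARRDC1, reads in the overlap of MLX and PSMC3IP cannot be told apart. Whether they bear on the small difference in MLX was not tested. The ratio of MLXIP to MLX was 0.607 to 0.737 in ethanol and 0.544 to 0.614 in O/A, ranges that overlap (exact permutation test, two-sided, p = 0.0571, also after adjustment). In all, 5 of the 7 genes had conditions that do not overlap in library-scaled counts (CPM after TMM scaling), against 47.6% of all genes tested.

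**Figure D4:**
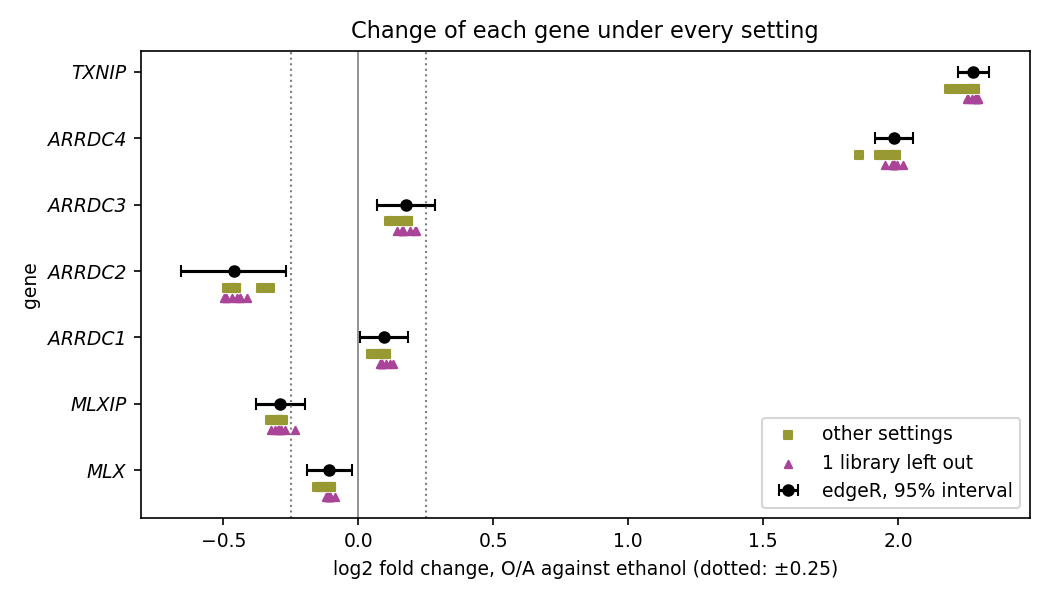
Log2(FC) of each gene (x axis) with its 95% interval in black, the values with 1 library left out as triangles and those of the other settings as squares, with dotted lines at 0.25 and -0.25. No gene changes side of 0, and 1 value of MLXIP, -0.23, lies inside the dotted lines.

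In ethanol the order of levels was TXNIP (mean 50.6 FPKM), MLX (13.03), ARRDC4 (12.2), ARRDC1 (11.9), MLXIP (8.53), ARRDC3 (6.39) and ARRDC2 (2.08). MLX and ARRDC4 overlap in that order, as do ARRDC4 and ARRDC1. In O/A it was TXNIP (237.8 FPKM), ARRDC4 (46.7), ARRDC1 (12.4), MLX (11.7), ARRDC3 (6.99), MLXIP (6.78) and ARRDC2 (1.46), where the only overlap between neighbours was that of ARRDC3 and MLXIP. ARRDC4, level with MLX and ARRDC1 in ethanol, thus stood 3.78 times above ARRDC1 in O/A.

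The counts of called genes in the lists that follow stand beside shares of 15.8% upregulated and 18.9% downregulated over all genes tested, and no list was tested as a group. Of 14 other genes described as targets of MondoA or of ChREBP, its paralogue, 11 were tested, 2 were upregulated and 2 downregulated, near those shares, and their median log2(FC) was -0.05, against -0.0004 over all genes tested. KLF10, a transcriptional repressor, had 23.9 ± 0.668 FPKM in ethanol against 22.3 ± 1.25 under O/A (n = 4 libraries per condition, SD). The hexokinase gene HK2 had 15.3 ± 0.516 and 15.6 ± 0.238 FPKM, and PFKFB3, a kinase that stimulates glycolysis, had a log2(FC) of -0.19 (adjusted p = 3.50e-04), and none of these was called. The upregulated genes were RGS16 (log2(FC) 0.84), a regulator of G protein signalling with only 9 to 37 counts per library and overlapping conditions, whose call was lost on omission of either ethanol replicate 1 or O/A replicate 1 (adjusted p up to 0.0729, edgeR), and ADIPOR2 (0.34), an adiponectin receptor. PPP1R3B (-0.41), which targets a phosphatase to glycogen, and ELOVL6 (-0.35), a fatty acid elongase, were downregulated.

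The pair of motifs in the TXNIP promoter was also followed to the other genes that hold one, a list set by sequence alone and added after the values were known. Of 23 such genes 15 were tested, TXNIP, which prompted the list, among them. The other 14 held 3 upregulated and 2 downregulated genes, against 15.8% and 18.9% of all genes, with a median log2(FC) of 0.15. Those that rose were GFPT1 (1.43, adjusted p = 1.78e-39), the first enzyme of hexosamine synthesis from fructose 6-phosphate, KCTD5 (0.64) and P4HA1 (0.42). RAN (-0.255, barely past the threshold in size) and TIGD1 (-0.81, at a low level of 0.495 FPKM in ethanol and 0.273 in O/A) fell. Whether the calls of this list hold under the alternative settings was not tested.

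Within the network of proteins that share MLX or MAX as a partner, 3 of 9 genes were upregulated, against 15.8% of all genes, and 2 downregulated, against 18.9% (median log2(FC) 0.10). MXD1, a repressor that pairs with MAX and MLX, went from 4.16 ± 0.281 to 19.6 ± 0.352 FPKM (SD, n = 4), a log2(FC) of 2.29. MNT (0.27) and MXI1 (0.27) rose, and MYC (-0.67) and MGA (-0.26) fell. Without ethanol replicate 4, and also without O/A replicate 2, 3 of these 9 genes were called rather than 5. The calls of MNT, MXI1 and MGA, all close to the threshold in size, were lost in 3, 4 and 5 of 15 alternatives. MLXIPL, which encodes ChREBP, had only 9 to 17 counts per library, and a change in it was not detectable at this depth (log2(FC) 0.42, standard error 0.30, adjusted p = 0.233).

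Of 9 genes of the NEDD4 family, the ligases that α-arrestins recruit, 5 were not called. The 3 upregulated genes, against 15.8% of all genes, were HECW2 (log2(FC) 1.40), NEDD4L (0.61) and NEDD4 (0.45), and 1 gene, WWP2 (-0.36), was downregulated, against 18.9%, with a median of 0.23 over the list. HECW2 rose from a low level of 0.178 ± 0.024 to 0.455 ± 0.039 FPKM (SD, n = 4), while NEDD4, the founding member, rose from 12.8 ± 0.156 to 16.9 ± 0.248 FPKM. ITCH (0.23) and SMURF1 (0.24) stayed just within the threshold in size.

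In the thioredoxin system 3 of 9 genes were upregulated, against 15.8% of all genes, and none was downregulated (median log2(FC) 0.04). Thioredoxin itself, TXN, the binding partner of TXNIP, had 190.7 ± 9.07 FPKM in ethanol against 189.2 ± 6.47 under O/A (SD, n = 4) and was not called (log2(FC) 0.04, adjusted p = 0.348, edgeR). TXNRD1, the cytosolic thioredoxin reductase, rose from 38.0 ± 0.888 to 71.5 ± 1.70 FPKM (log2(FC) 0.96). TXNDC12 rose as well (0.68). TXNDC5 passed narrowly (log2(FC) 0.29, adjusted p = 0.0444, edgeR), with overlapping conditions and 80 to 114 counts per library. Its call was lost in 10 of 15 alternatives, among them DESeq2 and the omission of ethanol replicate 1, 2 or 4 or of O/A replicate 2 or 4 (adjusted p up to 0.165), which leaves 2 of the 9 genes called. The lowest value was that of TXNRD3 (-0.18), which was not called.

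Among glucose transporters and hexokinases, the proteins at the entry of the pathway that MondoA reads, 4 of 10 genes tested were upregulated, against 15.8% of all genes, and 1 was downregulated, against 18.9% (median log2(FC) 0.10). SLC2A1 (GLUT1), the main transporter of these cells by level, had 35.2 ± 1.34 FPKM in ethanol against 33.7 ± 0.789 under O/A (SD, n = 4) and was not called, with a 95% interval of its log2(FC) of -0.08 to 0.04. SLC2A3 (GLUT3), a transporter of high affinity, rose from 2.99 ± 0.338 to 8.12 ± 0.530 FPKM (log2(FC) 1.49). SLC5A1 (0.77, at most 43 counts per library), SLC2A12 (0.48) and SLC2A13 (0.31) also rose, the first and the last of these with overlapping conditions, and SLC2A6 fell (-0.30). The calls of SLC5A1 and SLC2A13 were lost in both limma fits on log2 FPKM, and that of SLC5A1 also without O/A replicate 1. Of the other arrestins ARRB2 (0.0029) and ARRB1 (-0.08) were tested and not called, and ARRDC5 had no count in any library.

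The genes most like TXNIP over the 8 libraries were PPP1R15A, PSAT1, PCK2, TUBE1 and MXD1. Likeness is the root mean square difference in log2 TMM-scaled CPM, centred on ethanol, among 11389 genes, and it was 0.061, 0.073, 0.076, 0.081 and 0.086 for these genes in that order. ARRDC4 was at 0.213 from TXNIP, and 27 genes were nearer. Nearest to ARRDC4 were GPT2 (0.079), AREG (0.080) and IL1A (0.084), and nearest to MLXIP were CHD9 (0.030), SON (0.031) and FUOM (0.034). These distances describe patterns between 2 conditions and carry no test.

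Total counts ranged from 17210404 to 20999927 per library. The libraries are of bulk RNA, so a change in mRNA per cell and a change in the share of cells that make it cannot be told apart. Keratinocyte markers were abundant, with summed FPKM of 6674 to 7051 in ethanol and 6048 to 6313 in O/A over 10 genes, of which 1 rose (DSG3) and 2 fell (KRT5 and SFN). Of the 6 fibroblast markers only COL1A1 was tested, at 2.38 to 2.94 FPKM, and of the 6 melanocyte markers only PMEL, at 0.26 to 0.65 FPKM. Whether this lower sum of keratinocyte markers bears on the results above was not tested.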

How the data were processed

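mRNA of 8 libraries was examined, 4 per condition, grouped by the sample labels. Per the labels and the study's methods, the authors used HISAT2 2.0.1 to align read pairs to GRCh38.p13 and made raw counts per gene with HTSeq 0.6.1. They also deposited FPKM values, scaled by exonic size and library total. A second deposited file holds their own DESeq2 comparison and was not used.

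Counts were tested with edgeR 4.0.16 in R 4.3.3 (TMM scaling, robust quasi-likelihood fit) over the 14893 genes that reached 10 counts in 4 or more libraries. The alternatives were DESeq2 1.42.0, limma 3.58.1 on log2(FPKM + 0.1) and log2(FPKM + 1) and after quantile normalization, median-ratio scaling, omission of the filter, a stricter one (mean FPKM 5 or more), the replicate number as a block, other fold change thresholds, and omission of single libraries. Scripts were first tested on simulated data. Single values were compared by exact permutation tests (scipy 1.17.1).

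Promoters are RefSeq windows of GRCh38.p14, found for 7 of 7 genes. Protein sequences were not analysed here. The genes, lists and tests were chosen with earlier results of these data known. From each list the highest, the lowest and up to 5 called genes are named, with a few further members whose role matters and which were picked after their values were seen. Intervals at 95% for log2(FC) come from the quasi-likelihood fit, and total counts of 17210404 to 20999927 set the precision of genes with few reads.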

Additional observations from a re-analysis of the deposited data

Results flagged for a closer look

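A single library stood far apart from its 3 replicates in 5 of 72 gene and condition pairs examined, and chance alone flags about 1 in 20, or 3.6. Values are in TMM-scaled CPM. ARRDC3 had 33.8 in ethanol replicate 3 against 30.5 to 30.7 in the other ethanol libraries, which is the value that makes its conditions overlap. MLXIP had 92.2 in O/A replicate 1 against 96.3 to 97.1. MNT, a partner of MLX and MAX, had 27.1 in ethanol replicate 4 against 23.7 to 24.0, the library on which the call of MLXIP rests. TXNDC12 had 23.4 in O/A replicate 4 against 22.3 to 22.5. ARRDC3-AS1, the antisense gene of ARRDC3 with 13 to 23 counts per library and a log2(FC) of -0.25 (adjusted p = 0.435, edgeR), had 0.748 in O/A replicate 1 against 0.977 to 1.02.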

How the results depend on the processing

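No direction of the 7 genes turned in any alternative that could test them, and the call was kept in 110 of 111 of their values. The exception was MLXIP, whose log2(FC) lay between -0.32 and -0.23 when 1 library was left out and whose call was lost without ethanol replicate 4, where fewer samples are used. TXNIP stayed between 2.19 and 2.30, and ARRDC4 between 1.86 and 2.02. The adjusted p of ARRDC1 ranged from 0.0200 to 0.270, that of ARRDC3 from 0.00142 to 0.0821 and that of MLX from 0.00195 to 0.106. It crossed 0.05 in 9 values of these 3 genes, which were called in no alternative with the fold change threshold. ARRDC2 had too low a level for the filter at mean FPKM 5. At an absolute log2(FC) above 1, 2 of the 7 genes and 797 of all genes were called, and without a fold change threshold 6 and 7999 were, against 4 and 5165 as reported.

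With the filter at mean FPKM 5, where fewer genes are tested, 2183 genes were called, 2 in the MLX/MAX network, 2 among the MondoA or ChREBP targets and 2 among glucose transporters and hexokinases. On log2(FPKM + 0.1) 3 genes of the MLX/MAX network and 3 of glucose entry were called, and on log2(FPKM + 1) 2 and 3. When 1 library was left out, 3 to 5 genes of the MLX/MAX network, 4 to 5 of glucose entry, 3 to 4 of the targets, 3 to 4 of the 7 genes and 4987 to 5114 of all genes were called. The cause was not tested. The order of levels was the same on TMM-scaled counts per kilobase, and no motif count of the 7 genes changed when the window was extended past the start site. Replicate numbers gave no clear pairing of libraries, with correlations of 0.044, -0.0032, -0.028 and 0.074 between same-numbered libraries. The same-numbered O/A library had the highest correlation for ethanol replicates 1 and 4, and not for replicates 2 and 3. With the replicate block 5160 genes were called, 5117 of them shared. The call of TXNDC5 was lost with the replicate block, with DESeq2, without a filter, in both fits on log2 FPKM and without ethanol replicate 1, 2 or 4 or O/A replicate 2 or 4, leaving 2 genes of the thioredoxin system called rather than 3. Depth limits MLXIPL, RGS16 and SLC5A1, with at most 17, 37 and 43 counts per library.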
